A study of Bos taurus with 4 samples.

Results

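The bovine miR-10 and miR-196 precursors, whose genes lie within the HOX clusters, were followed through the small RNA of mammary epithelial cells. Tags were taken whose precursor was named bta-mir-10a or bta-mir-10b or began with bta-mir-196. This gave 5 of the 371 precursors listed: bta-mir-10a, bta-mir-10b, bta-mir-196a-1, bta-mir-196a-2 and bta-mir-196b. They were represented by 58 of 2792 distinct tags in the HH library and 44 of 2948 in the LL library. The cells were primary cultures, obtained by enzyme digestion of mammary tissue from Chinese Holstein cows, with no further treatment stated. The series contrasts cows of high and low milk fat percentage and provides 4 libraries, 1 RNA-seq and 1 small RNA library for each of the codes HH and LL. The codes are not explained, and the phenotype label is high milk fat for the RNA-seq pair and low milk fat for the small RNA pair, so values are given for HH against LL and not for a milk fat class. How many animals gave the cells of a library, and their age, is not stated in the labels.

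A miRNA is cut from a hairpin precursor and guides an Argonaute protein to messenger RNAs, chiefly by pairing through its seed, bases 2 to 8 counted from the 5′ end. The miR-10 and miR-196 genes sit between and within HOX genes, the homeobox transcription factors that set position along the body axis. Several HOX transcripts are themselves known targets of these miRNAs in human and mouse cells, HOXB8 being the textbook target of miR-196. In the RefSeq gene order of assembly ARS-UCD2.0, MIR10A lay within HOXB3, between HOXB5 and HOXB4, and MIR10B lay within HOXD4, between HOXD3 and HOXD8. MIR196A-1 lay within HOXB9 and next to HOXB8. MIR196A-2 lay between HOXC9 and HOXC10, and MIR196B between HOXA10 and HOXA9, within the gene LOC132345112.

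The most abundant tag of each mature miRNA is shown as deposited, 5′ to 3′ and with T for U, because all later results are read against these ends. Capitals mark the seed.
bta-mir-10a: tACCCTGTagatccgaatttgt
bta-mir-10b: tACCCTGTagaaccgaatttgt
bta-mir-196a-1: tAGGTAGTttcatgttgttggg
bta-mir-196a-2: tAGGTAGTttcatgttgttggga
bta-mir-196b: tAGGTAGTttcctgttgttggg

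The pair of miR-10 tags shared the seed ACCCTGT and the miR-196 tags shared AGGTAGT. Over 22 nt the miR-10a and miR-10b tags differed at 1 position, T12A (miR-10a base, position from the 5′ end, miR-10b base). The miR-196a and miR-196b tags also differed at 1 position, A12C, the same position of the tag. The capital marks it in the following lines.
miR-10a: taccctgtagaTccgaatttgt
miR-10b: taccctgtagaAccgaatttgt
miR-196a: taggtagtttcAtgttgttggg
miR-196b: taggtagtttcCtgttgttggg

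In all, 7087726 reads of the HH list and 9059038 reads of the LL list were miRNA reads; the let-7 family took 76.1% and 58.7% of them and bta-mir-222 took 7.15% and 22.01%. Since each code is 1 library of a kind, differences could not be set against a spread between replicates and describe these libraries. Intervals are exact 95% binomial or Poisson intervals and cover counting error of reads only. In the RNA-seq libraries, none of the 31 cell type markers looked up was at 0. The 8 luminal markers, keratins and caseins among them, summed to 74308 counts per 1000000 counts (CPM) in HH and 74926 in LL, sums carried mostly by the caseins CSN2 and CSN3, and the 6 basal markers to 3239 and 1532 CPM. The 7 stromal markers summed to 1342 and 1108 CPM, the 5 immune markers to 225 and 209 CPM, and the 5 endothelial markers to 718 and 856 CPM. Transcripts used as markers of other cell types were thus also counted, and whether those cells were present was not tested.

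The 5 precursors together were a minor part of the miRNA pool, at 0.0531% of the HH reads (0.0514 to 0.0548%) and 0.0469% of the LL reads (0.0455 to 0.0483%). The miR-10 precursors were at similar levels in both libraries, and the miR-196 precursors, summed, were 3.69-fold higher in HH with the scaling between libraries described below. Precursor bta-mir-10a, made from the HOXB cluster, had 1986 reads in HH and 2732 in LL, or 280 reads per 1000000 miRNA reads (RPM; 268 to 293) and 302 RPM (290.4 to 313). Precursor bta-mir-10b, from the HOXD cluster, had 1359 and 1379 reads, or 192 RPM (182 to 202) and 152 RPM (144 to 160.5). The order miR-10a over miR-10b held in both libraries with intervals apart.

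Precursor bta-mir-196a-1, from the HOXB cluster, had 256 reads in HH and 99 in LL, or 36.1 RPM (31.8 to 40.8) and 10.9 RPM (8.88 to 13.3). Precursor bta-mir-196b, from the HOXA cluster, had 114 and 28 reads, or 16.1 RPM (13.3 to 19.3) and 3.09 RPM (2.05 to 4.47). Precursor bta-mir-196a-2, from the HOXC cluster, had 47 and 12 reads, or 6.63 RPM (4.87 to 8.82) and 1.32 RPM (0.684 to 2.31). The levels therefore ran in the order miR-10a, miR-10b, miR-196a-1, miR-196b, miR-196a-2 in both libraries. All neighbours in this order had intervals apart in HH, and in LL all but bta-mir-196b and bta-mir-196a-2, whose intervals overlapped. The levels, places and ranks of bta-mir-196a-1 and bta-mir-196a-2 depend on the deposited assignment of tags that both precursors could give. Reads of the HOXB and HOXC copies are therefore not fully separated, as described below. Among all precursors bta-mir-10a ranked 55 in HH and 46 in LL, bta-mir-10b 59 and 61, bta-mir-196a-1 103 and 126, bta-mir-196b 122 and 162, and bta-mir-196a-2 146 and 198, of 307 and 348 precursors.

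**Figure D1:**
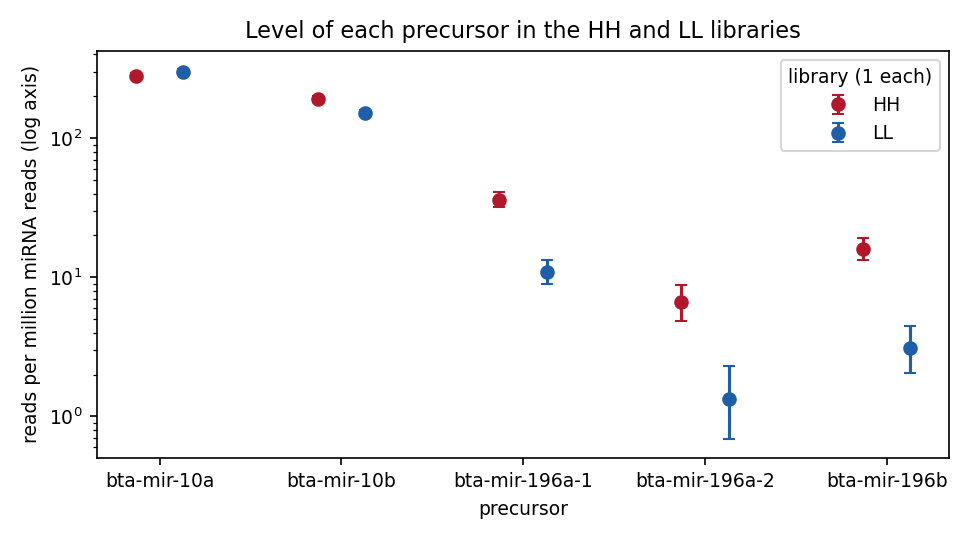
Level of each precursor in RPM (vertical log axis), with the HH library in red to the left of the LL library in blue; bars are exact 95% Poisson intervals of the read count. The miR-10 precursors lie above 150 RPM in both libraries, and each miR-196 point is higher in HH, at 36.1, 6.63 and 16.1 RPM against 10.9, 1.32 and 3.09 RPM in LL. The bta-mir-196a-1 and bta-mir-196a-2 points depend on the deposited assignment of tags that both precursors could give.

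Ratios were scaled by the trimmed mean of M-values (TMM) over all precursors. A precursor with 100 or more reads over both libraries was called when its HH over LL ratio was past 2-fold over the whole interval. Of 143 such precursors, 16.8% were called higher in HH and 11.2% higher in LL, and the median log2 ratio of the 142 with reads in both libraries was 0.24 (quartiles −0.38 and 0.77). Against this background, bta-mir-196a-1 had a log2 ratio of 1.67 (1.33 to 2.02) and bta-mir-196b one of 2.33 (1.72 to 2.98), and both were called higher in HH. They ranked 15 and 5 of 143 by ratio. Precursor bta-mir-196a-2 had 2.27 (1.33 to 3.32), but with 59 summed reads it was below the limit for a call.

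The miR-10 precursors were not called. The log2 ratio was −0.16 (−0.24 to −0.08) for bta-mir-10a and 0.28 (0.17 to 0.39) for bta-mir-10b, ranks 94 and 69 of 143. Summed, the miR-10 precursors were at 0.00 (−0.06 to 0.07) and the miR-196 precursors at 1.88 (1.60 to 2.17). The direction of bta-mir-10b depended on the scaling, at −0.02 with the upper quartile, and bta-mir-10a was below 0 under each of the scalings tried.

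**Figure D2:**
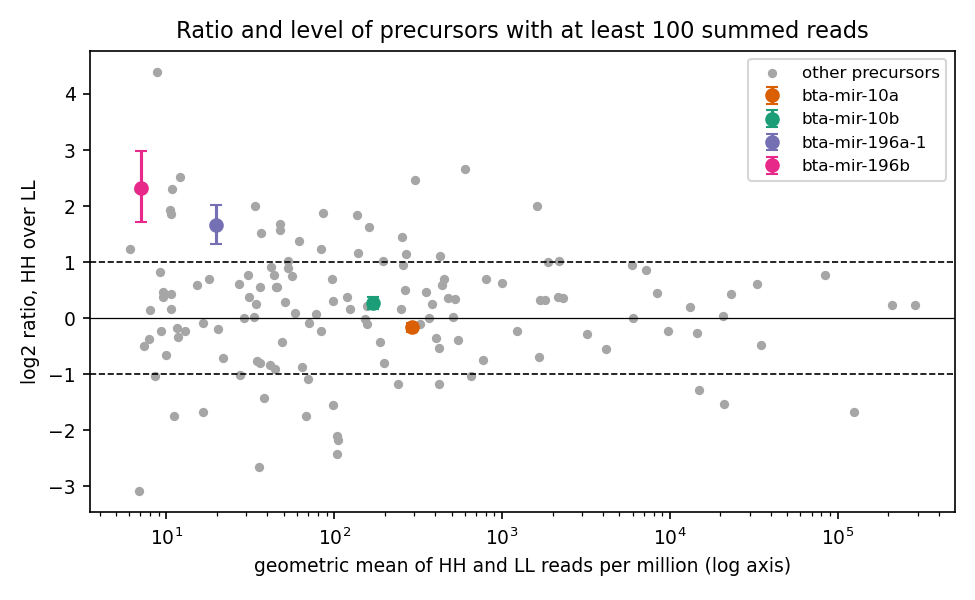
Log2 ratio of HH over LL (vertical axis) against the geometric mean level in both libraries (log axis) for the 142 precursors with at least 100 summed reads and reads in both libraries; dashed lines mark 2-fold and bars are exact 95% intervals. The points of bta-mir-196a-1 (1.67) and bta-mir-196b (2.33) lie above the upper dashed line, and those of bta-mir-10a (−0.16) and bta-mir-10b (0.28) lie near 0.

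The precursors nearest to each member in the plane of both libraries' log2 RPM, a likeness over 2 libraries only, were found for the 4 members with at least 100 summed reads, which leaves out bta-mir-196a-2. For bta-mir-10a they were bta-mir-193b (distance 0.23), bta-mir-378-2 (0.39) and bta-mir-296 (0.48). For bta-mir-10b they were bta-let-7a-2 (0.04), bta-mir-660 (0.17) and bta-mir-181d (0.30). Precursor bta-mir-196b lay next to bta-mir-339 (0.09), which had 108 reads in HH and 27 in LL, then bta-mir-362 (0.83) and bta-mir-449a (0.86). Precursor bta-mir-196a-1 had no precursor as close, with bta-mir-374a (0.72), bta-mir-1306 (0.94) and bta-mir-199b (0.97) the nearest.

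The split of miR-196a reads between its precursors followed the 3′ end of the tag. All 3 distinct bta-mir-196a-2 tags of this arm extended past the last base of the 22-nt tag, and none of the 7 bta-mir-196a-1 tags did. A tag that stops at or before base 22 has the same letters in both precursors' tags, so the files do not separate the HOXB and HOXC copies for such tags. With both precursors summed, miR-196a had 303 reads in HH against 111 in LL and a log2 ratio of 1.75 (1.43 to 2.08). The miR-196b share of miR-196 reads was 27.3% in HH (23.1 to 31.9%) and 20.1% in LL (13.8 to 27.8%), with overlapping intervals.

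Within the miR-10 pair, the miR-10a share needs no scaling between libraries. It was 59.4% of miR-10 reads in HH (57.7 to 61.0%) and 66.5% in LL (65.0 to 67.9%), so miR-10a made up more of the pair in LL. The share varied with tag length. Among 21-nt tags it was 82.8% in HH (76.5 to 88.0%) and 94.3% in LL (92.3 to 95.9%). Among 22-nt tags it was 56.1% (54.0 to 58.2%) in HH and 62.5% (60.6 to 64.4%) in LL. Among 23-nt tags the order of the libraries turned round, with 63.8% in HH (60.6 to 67.0%) and 42.8% in LL (38.8 to 46.8%).

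Tags of bta-mir-10a were shorter in LL, whereas those of bta-mir-10b had nearly the same lengths in both libraries. Tags of 21 nt or shorter held 8.66% of bta-mir-10a reads in HH (7.46 to 9.98%) and 32.8% in LL (31.1 to 34.6%). For bta-mir-10b they held 2.50% (1.74 to 3.48%) in HH and 3.34% (2.45 to 4.42%) in LL. The mean length of bta-mir-10a tags was 22.22 nt in HH and 21.63 nt in LL, and that of bta-mir-10b tags 22.31 and 22.28 nt.

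Individual bta-mir-10a tags show where the reads lay. They share their 5′ start and differ in where the 3′ end falls, and capitals mark the seed.
23 nt: tACCCTGTagatccgaatttgtg
22 nt: tACCCTGTagatccgaatttgt
21 nt: tACCCTGTagatccgaatttg
19 nt: tACCCTGTagatccgaatt

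The 23-nt tag had 552 reads in HH against 254 in LL and a log2 ratio of 1.42 (1.20 to 1.64). The 22-nt tag had 1146 and 1512 reads, a log2 ratio of −0.10 (−0.21 to 0.01). The 21-nt tag had 134 reads in HH and 656 in LL, at −1.99 (−2.27 to −1.72), and the 19-nt tag had 8 and 154, at −3.97 (−5.20 to −2.95). The near-level ratio of bta-mir-10a thus summed a 23-nt tag that was higher in HH and 21-nt and 19-nt tags that were higher in LL, each with its interval past 2-fold. The 21-nt tag of bta-mir-10b with the same 3′ end had 6 reads in HH and 12 in LL.

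Shorter tags were more frequent in LL across the small RNA libraries. All precursors other than the 5 members had 12.3% of reads in tags of 21 nt or shorter in HH and 24.6% in LL, or 18.5% and 21.9% when let-7 and bta-mir-222 were also left out. Over the 116 precursors with at least 100 reads in each library, the median difference of HH minus LL was −8.43 percentage points, and 93 had the lower share in HH. The difference was −24.2 points for bta-mir-10a, rank 30 from the most negative, and −0.83 points for bta-mir-10b, rank 84. Neither value lay outside those of other precursors.

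**Figure D3:**
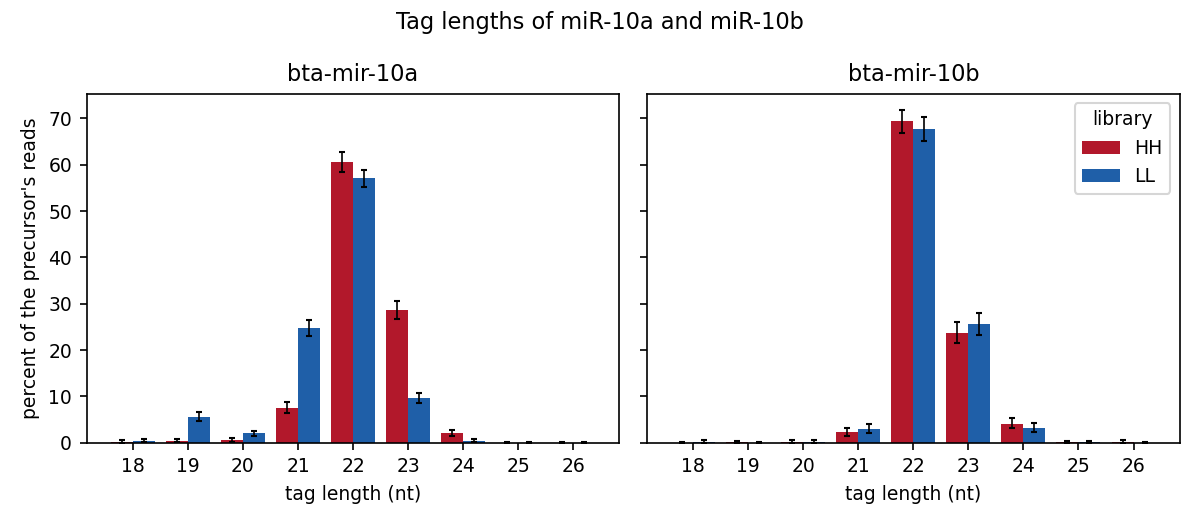
Share of each precursor's reads by tag length from 18 to 26 nt, for bta-mir-10a (left) and bta-mir-10b (right), with HH in red to the left of LL in blue and exact 95% binomial intervals. In bta-mir-10a, 32.8% of LL reads against 8.66% of HH reads in tags of 21 nt or shorter contrast with 3.34% and 2.50% in bta-mir-10b.

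The miR-196 precursors also had short tags in both libraries. For miR-196a, with both precursors summed, tags of 21 nt or shorter held 26.4% of reads in HH (21.5 to 31.7%) and 34.2% in LL (25.5 to 43.8%), with overlapping intervals. For bta-mir-196b they held 37.7% (28.8 to 47.3%) in HH and 53.6% (33.9 to 72.5%) in LL, again overlapping. In tags of 18 to 20 nt, bta-mir-196b had 11 of 114 reads in HH and 13 of 28 in LL. These were 9.65% (4.92 to 16.6%) and 46.4% (27.5 to 66.1%), with intervals apart, and the LL value rests on 28 reads. The higher share in LL was not particular to bta-mir-196b. In this length class miR-196a, summed, had 14.85% in HH and 27.03% in LL, with overlapping intervals. All precursors other than the 5 members had 6.851% in HH and 19.01% in LL. Without let-7 and bta-mir-222 these were 6.504% and 9.427%. The 18-nt tag of bta-mir-196b had 6 reads in each library, and its 22-nt tag had 42 in HH and 9 in LL. With tags of at least 21 nt only, the log2 ratio of bta-mir-196b was 3.08 (2.29 to 3.97).

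A second feature of miR-10b was its 5′ end. A tag that starts 1 base later has a different seed, CCCTGTA in place of ACCCTGT. Both kinds are shown for bta-mir-10b with the seed in capitals.
usual start, 22 nt: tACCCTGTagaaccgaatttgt
usual start, 23 nt: tACCCTGTagaaccgaatttgtg
1 base later, 22 nt: aCCCTGTAgaaccgaatttgtg
1 base later, 23 nt: aCCCTGTAgaaccgaatttgtgt

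Tags starting 1 base later held 204 of 1350 bta-mir-10b reads of this arm in HH, 15.1% (13.2 to 17.1%), and 263 of 1375 in LL, 19.1% (17.1 to 21.3%). For bta-mir-10a they held 87 of 1978 in HH, 4.40% (3.54 to 5.40%), and 72 of 2727 in LL, 2.64% (2.07 to 3.31%). The share was higher in bta-mir-10b than in bta-mir-10a in each library, with intervals apart. Between libraries, the bta-mir-10b share was higher in LL and the bta-mir-10a share higher in HH, and the bta-mir-10b intervals overlapped narrowly near 17.1%.

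Most precursors had few such tags. Over the same 116 precursors the median share starting 1 base later was 0.199% in HH and 0.398% in LL. Precursor bta-mir-10b ranked 4 of 116 in both libraries, and bta-mir-10a ranked 16 in HH and 20 in LL. For bta-mir-196b no read started 1 base later, 0 of 98 in HH and 0 of 24 in LL, which allows a share of up to 3.06% and 12.5%. For miR-196a, both precursors summed, 5 of 302 reads did in HH, 1.66% (0.540 to 3.82%), and 0 of 110 in LL.

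**Figure D4:**
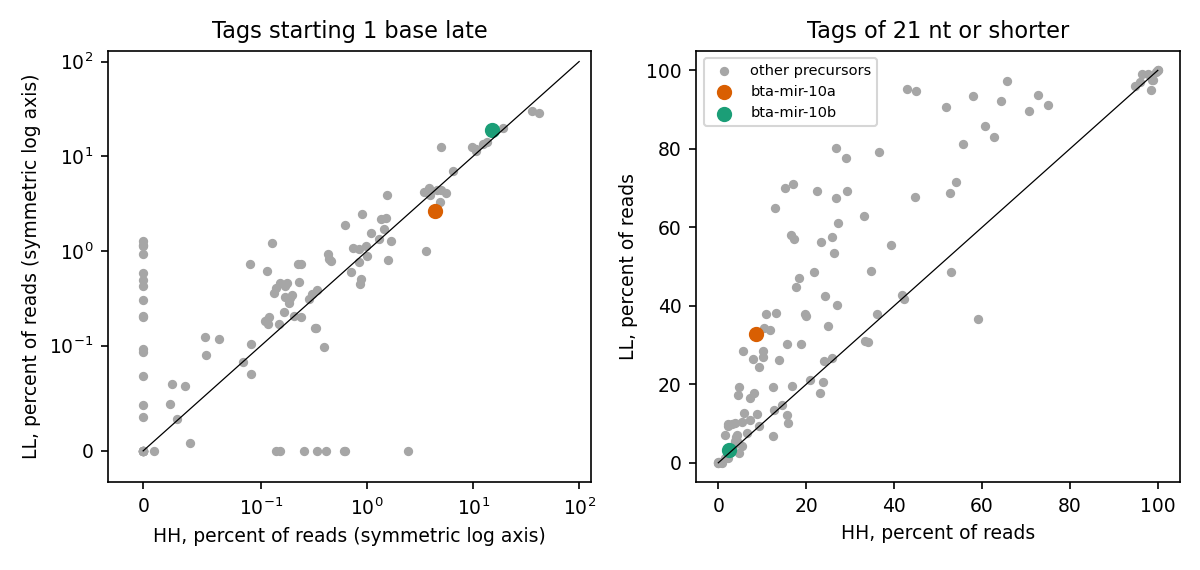
Each point is 1 of the 116 precursors with at least 100 reads in each library, HH on the horizontal and LL on the vertical axis, with the line of equal values. Left, percent of leading-arm reads starting 1 base later than the most abundant tag (symmetric log axes), where bta-mir-10b lies at 15.1% and 19.1%; right, percent of reads in tags of 21 nt or shorter, where bta-mir-10a lies at 8.66% and 32.8%.

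The start and the 3′ end of miR-10b tags moved together. Of bta-mir-10b reads with the usual start, 25.1% in HH (22.6 to 27.7%) and 22.5% in LL (20.1 to 25.1%) extended past the last base of the most abundant tag. Of those starting 1 base later, 88.2% in HH (83.0 to 92.3%) and 89.0% in LL (84.5 to 92.5%) did. For bta-mir-10a 31.4% in HH and 9.99% in LL did with the usual start, and 73 of 87 reads in HH (74.5 to 90.9%) and 54 of 72 in LL (63.4 to 84.5%) with the later start. Reads that started later thus mostly also ended later, in both libraries and both miRNAs.

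Nearly all member reads came from 1 arm of the hairpin, except in miR-196b. The most abundant tag's arm held 99.6% of bta-mir-10a reads in HH and 99.8% in LL, and 99.3% and 99.7% of bta-mir-10b reads. It held 46 of 47 bta-mir-196a-2 reads in HH and 11 of 12 in LL (61.5 to 99.8%), too few reads in LL to place this precursor. In bta-mir-196b the other arm held 16 of 114 reads in HH, 14.0% (8.24 to 21.8%), and 4 of 28 in LL, 14.3% (4.03 to 32.7%). Off-arm reads made up 14.1% of bta-mir-196b reads over both libraries, rank 29 of 143 precursors, against a median of 0.521%. The most abundant tags of the other arm are shown with bases 2 to 8 in capitals.
bta-mir-10a, other arm: cAAATTCGtatctagggg
bta-mir-10b, other arm: cAGATTCGattctaggggaata
bta-mir-196b, other arm: tCGACAGCacgacactgccttc

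These tags had 2, 4 and 7 reads in HH and 1, 0 and 2 in LL. The log2 ratio of bta-mir-196b was 2.33 (1.67 to 3.04) on the leading arm and 2.30 (0.67 to 4.34) on the other. No tag of the other arm was listed for bta-mir-196a-1, 0 of 256 reads in HH and 0 of 99 in LL, which allows up to 1.17% and 3.03%.

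The miR-10 seed belonged to the members alone, and the miR-196 seed did not. All 3035 HH reads and all 3765 LL reads with ACCCTGT at bases 2 to 8 were assigned to bta-mir-10a or bta-mir-10b. Of reads with AGGTAGT at these bases, the miR-196 precursors gave 395 of 3963 in HH, 9.97% (9.05 to 10.9%), and 134 of 6108 in LL, 2.19% (1.84 to 2.59%). Nearly all others, 3566 in HH and 5970 in LL, were let-7 tags that started 1 base later than usual. The usual let-7a tag and its shifted form show how the seeds come to coincide, with bases 2 to 8 in capitals.
bta-let-7a-3, usual start: tGAGGTAGtaggttgtatagtt
bta-let-7a-3, 1 base later: gAGGTAGTaggttgtatagtt
bta-mir-196a-1: tAGGTAGTttcatgttgttggg

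The shifted let-7a tag had 1301 reads in HH and 2407 in LL, and the usual tag 2072921 and 2136066. Let-7 tags carrying the miR-196 seed were 0.0661% of let-7 reads in HH (0.0639 to 0.0683%) and 0.112% in LL (0.109 to 0.115%). Reads with this seed were therefore more often from miR-196 in HH than in LL, while in each library most were from let-7.

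HOX genes next to or near the miRNA genes were read from the RNA-seq pair, where the whole interval past 2-fold was found for 1.97% of 16249 genes with at least 20 summed counts in the direction of HH and for 1.22% in the direction of LL. Of 15 HOX genes listed beside or near the members, 13 were in the table and 10 had at least 20 summed counts. None of the 10 was past 2-fold, and their median log2 ratio was 0.29, against −0.01 over all genes tested. The intervals lay wholly above 0 for 3 of 10 and wholly below 0 for none, against 24.5% and 24.6% of all genes.

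Around MIR10A, HOXB3 had 169 counts in HH against 120 in LL and a log2 ratio of 0.36 (0.01 to 0.71), and HOXB4 had 64 and 48 counts, 0.28 (−0.28 to 0.85). Around MIR10B, HOXD4 had 89 and 63 counts, 0.36 (−0.12 to 0.85), HOXD3 had 0.29 (−0.11 to 0.71) and HOXD8 had −0.12 (−0.62 to 0.39). HOXB3 was the only 1 of these 5 genes with its interval above 0, and HOXD8 was the only 1 with a ratio below 0.

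Around MIR196B, HOXA9 had 601 counts in HH and 591 in LL, −0.11 (−0.28 to 0.05). HOXA10 had 52 and 29 counts, 0.70 (0.02 to 1.41), and HOXA7 had 284 and 151, 0.77 (0.48 to 1.07). Around MIR196A-2, HOXC9 had 93 and 95 counts, −0.17 (−0.60 to 0.26), and HOXC10 had 20 and 23, −0.34 (−1.28 to 0.59). HOXB9, which holds MIR196A-1, had 2 counts in HH and 3 in LL, and HOXB13 and HOXC11 had none. These measured HOX genes all had log2 ratios below the 1.67 to 2.33 of the miR-196 precursors. The 2 kinds of ratio come from separate pairs of libraries scaled apart, so their sizes are not directly comparable. Precursor ratios were also spread more widely (quartiles −0.38 and 0.77) than gene ratios (−0.26 and 0.28). Of the measured HOX genes directly beside a miR-196 gene, HOXA10 had the highest ratio, and HOXA7 lies further along the cluster, past HOXA9. Over all HOX genes, 25 of 37 had at least 20 summed counts, 18 of these had a ratio above 0, where 49.0% of all genes did, and their median was 0.31.

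The miRNA genes themselves had few counts in the gene table. MIR10B had 10 counts in HH and 2 in LL, MIR196B had 13 and 14, MIR10A had 1 in each, and MIR196A-1 and MIR196A-2 had none. Whether such counts come from the miRNA hairpin or from a longer transcript that overlaps it cannot be told apart in this table, and none of the sources used here says whether counting used strand.

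Targets of miR-10 reported in human or mouse were compared next. Of 19 genes compared, all were in the table and 17 had at least 20 summed counts. None was past 2-fold, and the median log2 ratio was 0.07, against −0.01 over all genes. The interval lay above 0 for 6 and below 0 for 3 of the 17, against 24.5% and 24.6% of all genes. SDC1, the cell surface proteoglycan syndecan-1, had 783 counts in HH and 426 in LL, 0.74 (0.57 to 0.91). KLF4, a transcription factor of epithelial differentiation, was at 0.43 (0.27 to 0.59) and TFAP2C, a factor of mammary luminal cells, at 0.41 (0.28 to 0.55). BCL6, a transcriptional repressor, had 1708 counts in HH and 2166 in LL, −0.48 (−0.57 to −0.39), and the splicing factor gene TRA2B was at −0.19 (−0.28 to −0.11). HOXD10, the best-known miR-10b target in human breast cancer cells, had 7 counts in HH and 14 in LL, −1.14 (−2.69 to 0.27). The HOX target HOXA3 was at 0.31 (−0.08 to 0.71).

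Of 17 reported miR-196 targets, 16 were in the table and 15 had at least 20 summed counts. Of these, 1 was past 2-fold in each direction, where 1.97% of all genes were in the direction of HH and 1.22% in that of LL. The median log2 ratio was 0.07, against −0.01 over all genes. The interval lay above 0 for 6 and below 0 for 2 of the 15, against 24.5% and 24.6% of all genes. KRT5, a basal keratin, had 12968 counts in HH and 4822 in LL, 1.29 (1.24 to 1.34). S100A9, a calcium-binding protein of neutrophils and inflamed epithelium, had 76 and 286 counts, −2.05 (−2.43 to −1.68). ANXA1, the annexin that binds phospholipids, had 5648 counts in HH and 3169 in LL, 0.70 (0.63 to 0.76). FOXO1, a transcription factor restrained by insulin signalling, had 3849 and 4897 counts, −0.48 (−0.55 to −0.42).

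The 6 measured HOX genes of this list included HOXA7, HOXA9 and HOXD8, given above at 0.77, −0.11 and −0.12. The others were HOXA5 at 0.44 (0.01 to 0.87), HOXC8 at 0.31 (−0.08 to 0.70) and HOXB7 at 0.03 (−0.61 to 0.67). HOXB8 was the listed target not in the table and was not analysed here. HMGA2, a chromatin protein of embryonic and tumour cells, had no count in either library. KRT5 is also 1 of the 6 basal markers, which were all higher in HH with a median log2 ratio of 1.09. All 6 had whole intervals above 0, where 24.5% of all genes did. Of the 6, 3 were past 2-fold in HH (KRT5, KRT14 and KRT17), where 1.97% of all genes were. The ratio was above 0 for 7 of 8 luminal markers (median 0.30, with KRT18 past 2-fold at 1.74) and 6 of 7 stromal markers (median 0.58). It was above 0 for 3 of 5 immune markers (median 0.46) and 1 of 5 endothelial markers (median −0.27), where 49.0% of all genes had such a ratio. In bulk cultures such as these, a different share of a cell type and a different amount of RNA per cell cannot be told apart. The part of these cell types in the miR-196, KRT5 and HOX values was not tested.

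**Figure D5:**
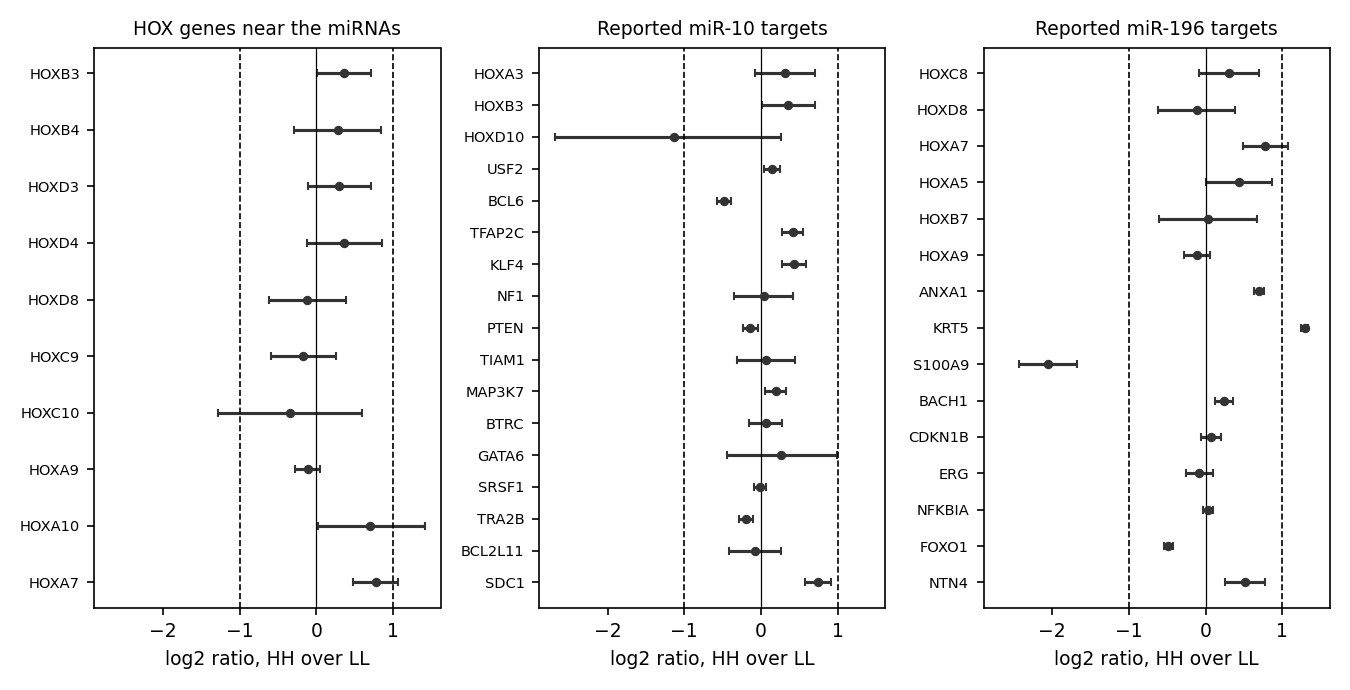
Log2 ratio of HH over LL in the RNA-seq pair for HOX genes beside or near the miRNA genes (left), reported miR-10 targets (centre) and reported miR-196 targets (right) with at least 20 summed counts; bars are exact 95% intervals and dashed lines mark 2-fold. KRT5 (1.29) and S100A9 (−2.05) are the genes whose whole interval lies past a dashed line.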

How the data were processed

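The authors deposited raw read counts by gene for the RNA-seq pair, in columns HH and LL per the file headers, and 1 list of distinct small RNA tags with read counts, lengths and precursor names for each small RNA library. Per the labels' protocols, RNA longer than 18 nt entered Ion Total RNA-Seq libraries. For trimming, aligner, counter, genome build and miRNA database: not given in the sources used here. Every listed tag had the class miRNA, so the totals are miRNA reads and not library depths (RNA-seq totals were 17369144 counts for HH and 16318951 for LL).

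Tags sharing 12 bases with a precursor's most abundant tag were treated as its leading arm, and others sharing 10 bases with the most abundant remaining tag as the other arm. Starts and ends are relative to the most abundant tag. Ratios were scaled with TMM factors (edgeR 4.0.16, R 4.3.3). Their intervals come from the exact (Clopper-Pearson) 95% interval of the HH share of reads, and no p-value was computed with 1 library per code. A count of 0 allows 3 counts of the total. The reads carry no molecular identifiers and may repeat 1 molecule, so all intervals cover counting error only. DESeq2 1.42.0 size factors, the upper quartile, total counts, other minimums and tag subsets were tried as alternatives. The ratio steps were checked on simulated data that held counting noise only, so the check does not cover differences between libraries of the same code.

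Named were all members and arms, leading tags, the 3 nearest precursors and members of the gene lists. The members and lists were chosen with earlier results of these data known. A few listed genes are not reported here because they are withheld for evaluation, and the counts and median of the miR-10 target list leave them out. RefSeq symbols of assembly ARS-UCD2.0 gave gene order only, and no coordinates are printed because the files' build is not given.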

Additional observations from a re-analysis of the deposited data

How the results depend on the processing

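No paired analysis was possible because each code has 1 library of a kind, and no replicate could be left out. Of 35 alternative values of the 5 precursor ratios, 27 stayed inside the main interval. For bta-mir-10a the log2 ratio was −0.34 with DESeq2 size factors, −0.46 with the upper quartile, −0.42 with a line on GC content removed and −0.056 with tags of at least 21 nt. For bta-mir-10b it was 0.096, −0.023 and 0.019 under the first 3 of these. For bta-mir-196b it was 3.08 with tags of at least 21 nt, and bta-mir-196a-1 and bta-mir-196b were past 2-fold under every scaling tried. DESeq2 size factors shifted every miRNA ratio by −0.18 and the upper quartile by −0.30, and the calls were then 20 in HH and 18 in LL, and 18 and 20, in place of 24 and 16. At 4-fold the calls were 4 in HH and 5 in LL. The miR-10a share in LL was 64.6% with tags of at least 21 nt, and with 22-nt tags only, chosen after seeing the data, it was 56.1% in HH and 62.5% in LL. With the leading arm only, also chosen after seeing the data, the share of bta-mir-196a-2 reads in tags of 21 nt or shorter in LL was 0% in place of 8.33%, 1 of 12 reads. That 0% reflects the deposited assignment, which listed every leading-arm miR-196a tag stopping at or before base 22 under bta-mir-196a-1. The medians of the 3 gene lists kept their direction under each scaling and minimum. Alternatives needing hairpin sequences were not run. Depth limits bta-mir-196a-2 most, with 12 reads in LL.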

Other observations

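A few bta-mir-10b tags reached far past the 3′ end of the mature miRNA, in HH only among the tags listed. One tag of 26 nt had 3 reads and one of 28 nt had 1 read in HH, against 0 in LL, where 3 reads would be 0.331 RPM. A further tag of 19 nt with 1 read in HH shared no 12 bases with either arm, and its first 7 bases are the last 7 of the 28-nt tag. The tags are shown with bases 2 to 8 in capitals.
26 nt: aCCCTGTAgaaccgaatttgtgtggt
28 nt: aCCCTGTAgaaccgaatttgtgtggtat
19 nt: gTGGTATCcatgtagtcac

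These are single-digit counts and no difference between libraries can be read from them at this depth.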
